A study of Mus musculus with 686 samples.

Results

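miR-126a is a microRNA (miRNA), a small RNA that lowers the output of messenger RNAs it pairs with. Its hairpin gives a strand from each arm, mmu-miR-126a-3p and mmu-miR-126a-5p, called here the 3p and 5p strands. They were taken by name from the miRNA table, without use of their values, and are 2 of its 1964 rows. Both were counted in all 686 small RNA libraries from 13 mouse tissues. All mice were female BALB/cAnNTac animals aged about 3 or 8 months and ate the same food bars. They either flew to the International Space Station (FL), lived on the ground in flight-type habitats (HGC, habitat ground control) or lived in ordinary cages (VGC, vivarium ground control). FL mice of the live animal return (LAR) collection spent 39.5 days on the station and were killed 2 to 4 days after splashdown, and organs of LAR mice were frozen within minutes. TERM mice were killed 22 to 24 days after launch and were frozen as whole carcasses, which were later thawed for dissection, except that the spleen was taken fresh into RNAlater. LAR held 114 FL, 113 HGC and 121 VGC libraries, and TERM held 115, 114 and 109. The brains of LAR and the pancreases of TERM were all from 3-month mice. Mould on the food bars reached FL and HGC mice, and the delayed return kept FL and HGC mice of LAR in denser housing, so these groups also carry those exposures. FL carcasses of TERM froze in air on the station, more slowly than ground samples, which adds a difference between FL and the controls of TERM.

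The miR-126a hairpin lies in an intron of Egfl7, which encodes a protein secreted by endothelial cells, the cells that line blood vessels. The 3p strand is known for repressing Spred1 and Pik3r2, which restrain signalling from the VEGF receptor, and the 5p strand for repressing Dlk1, an inhibitor of Notch. Blood stem cells and platelets also contain miR-126, so a tissue's level reads its vessels without being confined to them.

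The mature 3p strand and the hairpin are shown first, since the strand comparison rests on them, together with both strands of miR-126b, which is read from the opposite DNA strand of the same place. Sequences and positions are from RefSeq for build GRCm38.p6 and are written 5′ to 3′. Capitals mark the seed, bases 2 to 8, in each mature strand, and the 3p strand in the hairpin.
mmu-miR-126a-3p, chr2:26591402-26591423, plus strand: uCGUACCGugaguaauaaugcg
miR-126a hairpin, chr2:26591357-26591429, plus strand: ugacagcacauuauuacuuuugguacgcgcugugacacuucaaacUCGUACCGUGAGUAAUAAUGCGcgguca
mmu-miR-126b-5p, chr2:26591399-26591420, minus strand: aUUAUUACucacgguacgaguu
mmu-miR-126b-3p, chr2:26591363-26591385, minus strand: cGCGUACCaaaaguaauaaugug

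The 3p strand fills bases 46 to 67 of the 73-base hairpin. Its seed, CGUACCG, was carried by 0 other names among the 1679 mature miRNAs of the table. miR-126b-5p pairs with 19 of its 22 bases across the DNA duplex (positions 26591402 to 26591420). In the GENCODE annotation of the same assembly, Egfl7 spans positions 26580014 to 26593120 of chromosome 2 on the plus strand, and the hairpin starts 293 bases into intron 7 of its 10-exon transcript Egfl7-201. That intron runs from 26591064 to 26591663, and 1 of the 19 Egfl7 transcripts holds the hairpin in an exon instead.

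Library size and identity were checked before the strands were compared. Total miRNA counts per library, in units of 1000000 counts, ran from 0.181 to 30.5 with a median of 3.88. Each library was also set against the 13 tissue medians over 728 tissue-biased miRNAs, with both miR-126a strands left out. In this check 166 of 686 libraries (24.2%) were closest to a tissue other than their label: 46 of 57 in mesenteric adipose tissue (MAT), 20 of 60 in brown adipose tissue (BAT), 19 of 59 in diaphragm, 12 of 58 in lung and 0 of 25 in brain. Such libraries made up more than 1 in 3 of the members of 11 of the 44 sequencing pools, which the study lists for each library, and those 11 pools held 168 libraries. Results are therefore given for all libraries by their labels, and again without these pools where that changes them. Defining miRNAs peaked in the labelled tissue for liver (1 of 1), heart (2 of 2), brain (2 of 2), pancreas (3 of 3) and thymus (2 of 2). They did so only in part for diaphragm (2 of 3 muscle miRNAs), kidney (1 of 3), lung (1 of 2) and BAT (1 of 2), and no list defined spleen or the white fat depots.

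The 3p strand was abundant in every tissue, and lung stood well above the rest. Levels are counts per 1000000 miRNA counts (CPM), and the lowest, median and highest library are given. Lung libraries ranged from 7162 through 49669.7 to 117744 CPM, which made the 3p strand 4.97% of all miRNA counts in the median lung and placed it at median rank 5.5 among miRNAs. Brain libraries ranged from 1525 through 3654 to 8008 CPM, or 0.365% of counts and median rank 34. The lung median was 13.6-fold the brain median, and the brain maximum stayed below the lung median. The lowest lung library lay inside the brain range, but it was closest to BAT in the check above. Lung libraries closest to lung began at 32628 CPM in LAR and 27771 CPM in TERM.

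Between these ends the other tissues followed one another with overlapping ranges. In order of their medians they began with thymus, with 2174 through 8061 to 45791.5 CPM, pancreas, with 3039 through 9813 to 31777 CPM, and spleen, with 3293 through 10416 to 55122 CPM. Next came diaphragm, with 1814 through 10584 to 46248.5 CPM, and liver, with 5982 through 10898 to 21001 CPM. Liver, whose sinusoids are dense with endothelium, had the narrowest range of these. The 3 white fat depots followed: subcutaneous (SCAT), with 3716 through 14916 to 47035 CPM, MAT, with 7245 through 16293 to 54671 CPM, and gonadal (GAT), with 4683 through 18682 to 29569 CPM. Last before lung came heart (7541 through 19022 to 47299 CPM), kidney (9108 through 19687 to 46651.5 CPM) and BAT (6181 through 21497 to 60831 CPM). Of the 12 pairs of neighbours in this order, 3 differed in a 2-sided permutation test of medians with 100000 resamples, adjusted over the 12 pairs. These were brain and thymus (adjusted p = 6e-05), liver and SCAT (8e-05), and BAT and lung (6e-05). The ranges of libraries overlap within each of these pairs. The smallest unadjusted p that these resamples can give is 1e-05. The other 9 pairs did not pass, with log2 differences of medians from 0.02 between spleen and diaphragm to 0.28 between thymus and pancreas. Tissues of the same mice enter both sides of such a pair, so these p-values treat related libraries as independent.

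Some libraries that went against their label had a 3p level nearer to the tissue they resembled. The 11 libraries labelled as another tissue but closest to lung held 37620.1 to 55122 CPM of the 3p strand, within the lung range, while the 12 labelled lung but closest to another tissue had a median of 17389 CPM. Over all 166 mismatched libraries, the 3p level was nearer to the median of the closest tissue in 94 (56.6%) and nearer to that of the label in 72, and the 5p level was nearer to the closest tissue in 90 (54.2%). In the 66 where the own and closest tissue differed by more than 1 in log2 median 3p level, 48 (72.7%) were nearer to the closest tissue. Without the 11 pools the lung median was 57330.1 CPM, the brain median 3560.4 CPM and the ratio between them 16.1-fold, and 5 of 12 neighbouring pairs differed. Lung was highest on each of 3 scales tried, but the rest of the order depends on the scale: scaled to the counts of 5 RNA classes, pancreas was lowest, brain next, and GAT, MAT and SCAT followed below thymus. With TMM factors over all libraries brain was lowest, but liver (median log2 level 14.12) lay above SCAT (13.77), MAT (13.57) and GAT (13.85), so the difference between liver and SCAT had the opposite direction on both of these scales. In LAR alone 2 pairs differed, and liver was not the lower tissue of either. In TERM alone 3 pairs differed, among them liver and SCAT, while brain and thymus did not pass (log2 difference of medians 0.61, adjusted p = 0.155). The order of tissues was close in both collections. Pearson r between LAR and TERM over the 13 tissue medians was 0.954, and 0.895 without lung and brain.

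**Figure D1:**
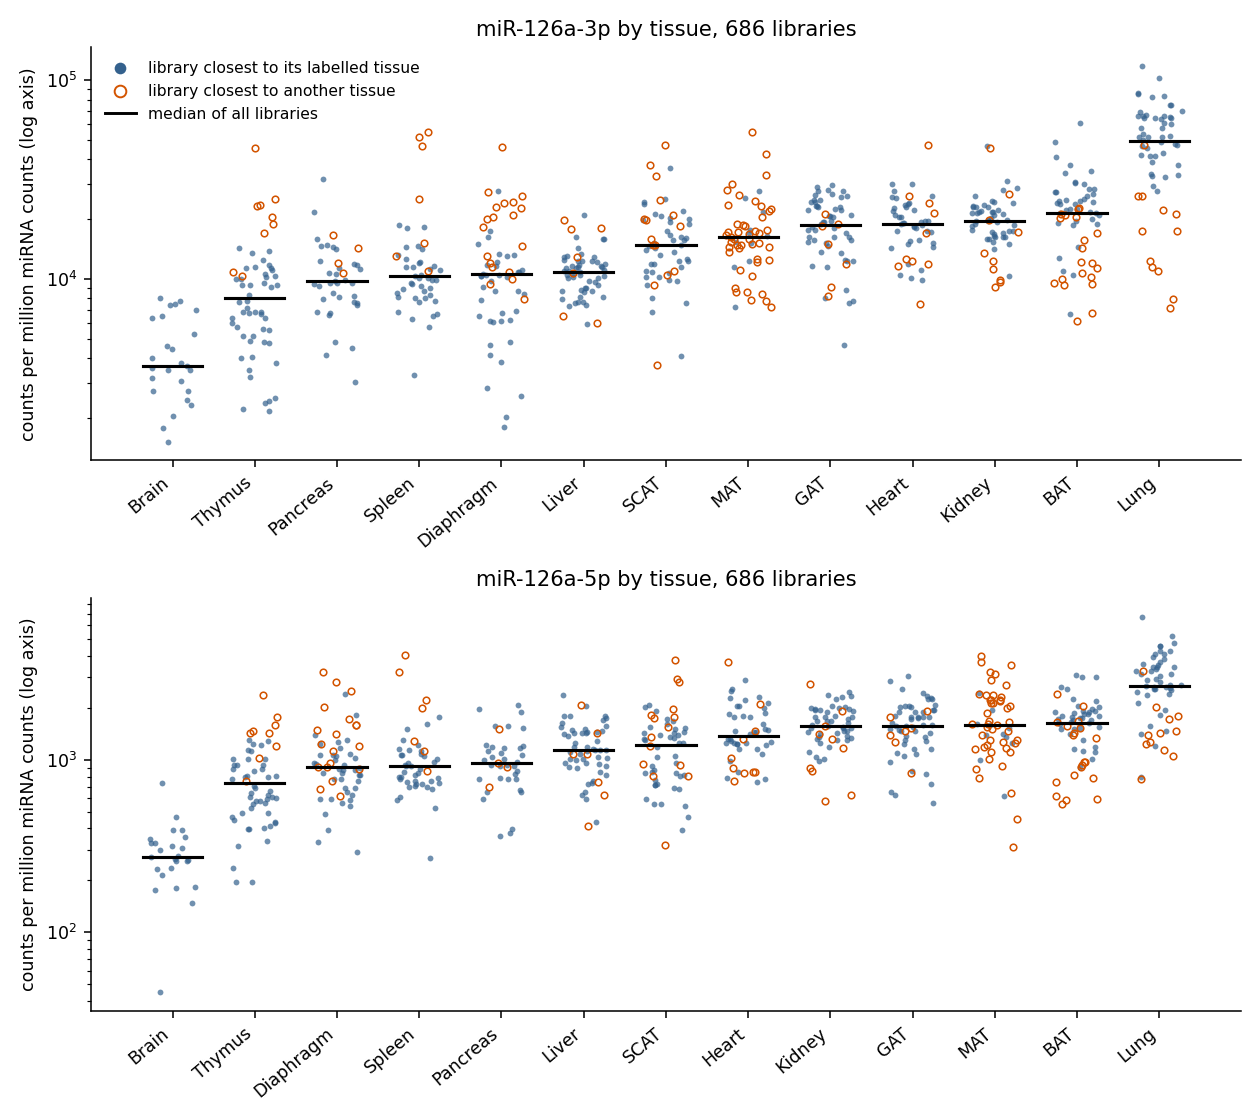
Level of miR-126a-3p (top) and miR-126a-5p (bottom) in every library by labelled tissue, in counts per 1000000 miRNA counts on a log axis, with tissues ordered by their median (black line). Filled points are libraries closest to their labelled tissue and open points are libraries closest to another. Brain is lowest and lung highest for both strands, and some open points lie away from the filled ones of their column.

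The 5p strand followed a similar order at a lower level. Its median was 272 CPM in brain, with libraries from 45.1 to 735 CPM, and 2684 CPM in lung, with libraries from 775 to 6745 CPM, a 9.87-fold range of medians. Thymus (730 CPM) was next above brain, followed by diaphragm (912 CPM), spleen (920 CPM, 919.6 before rounding), pancreas (958 CPM), liver (1136 CPM) and SCAT (1225 CPM). Heart (1373 CPM), kidney (1570.1 CPM), GAT (1575 CPM), MAT (1591 CPM) and BAT (1644 CPM) came closest to lung. Of the 12 neighbours 3 differed in the same permutation test: brain and thymus (adjusted p = 0.00012), thymus and diaphragm (0.0399), and BAT and lung (0.00012). Without the 11 pools thymus and diaphragm no longer passed (adjusted p = 0.234), and liver and heart did (0.00552). Over the 13 tissue medians of log2 CPM the strands had Pearson r = 0.965, and over libraries, after removing the median of each tissue and collection, r = 0.562. Both are reads of the same libraries, so they share library size and any label errors.

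The 3p strand outnumbered the 5p strand in each of the 686 libraries. A library held from 1628 to 1462060 reads of the 3p strand (median 48031) and from 27 to 113665 reads of the 5p strand (median 4153.5), with medians of rank 17 and 65 among miRNAs. The median library held 12.4 reads of 3p per read of 5p, so that 7.49% of miR-126a reads were 5p, and 12 libraries fell under 4-fold. The lowest ratio was 2.00, in the pancreas of FL TERM mouse 4, where 5p was 33.3% of 2134 plus 1067 reads (exact 95% binomial interval 31.7% to 35.0%). The highest was 163, in the brain of VGC TERM mouse 8, where 5p was 0.599% of reads (exact 95% interval 0.395% to 0.871%) and rested on 27 reads. These intervals cover counting error alone, and the ratio is one of reads after ligation and PCR rather than of molecules.

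The strand ratio spanned a narrower range of tissue medians than the levels. Its median ran from 9.13 in liver, through 10.3 in pancreas, 11.3 in thymus, 11.7 in MAT, 12.0 in spleen, 12.1 in diaphragm and 12.3 in GAT. It continued through 12.8 in kidney, 13.3 in heart, 13.7 in SCAT, 13.8 in BAT and 14.5 in brain to 17.8 in lung. The ends differ 1.95-fold, and 0 of the 12 neighbouring pairs passed the permutation test, in which 0 pairs also passed after leaving out the 11 pools. The same comparison found 3 pairs for each level. Tissue label accounted for 51.6% of the variance of the log2 3p level, 49.3% of the 5p level and 11.3% of the log2 ratio. The order of ratios was less stable than that of levels. Between LAR and TERM medians r was 0.580 over 13 tissues, and 0.352 without lung and brain, and pancreas stood at the low end in TERM (7.26) in place of liver in LAR (9.50).

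**Figure D2:**
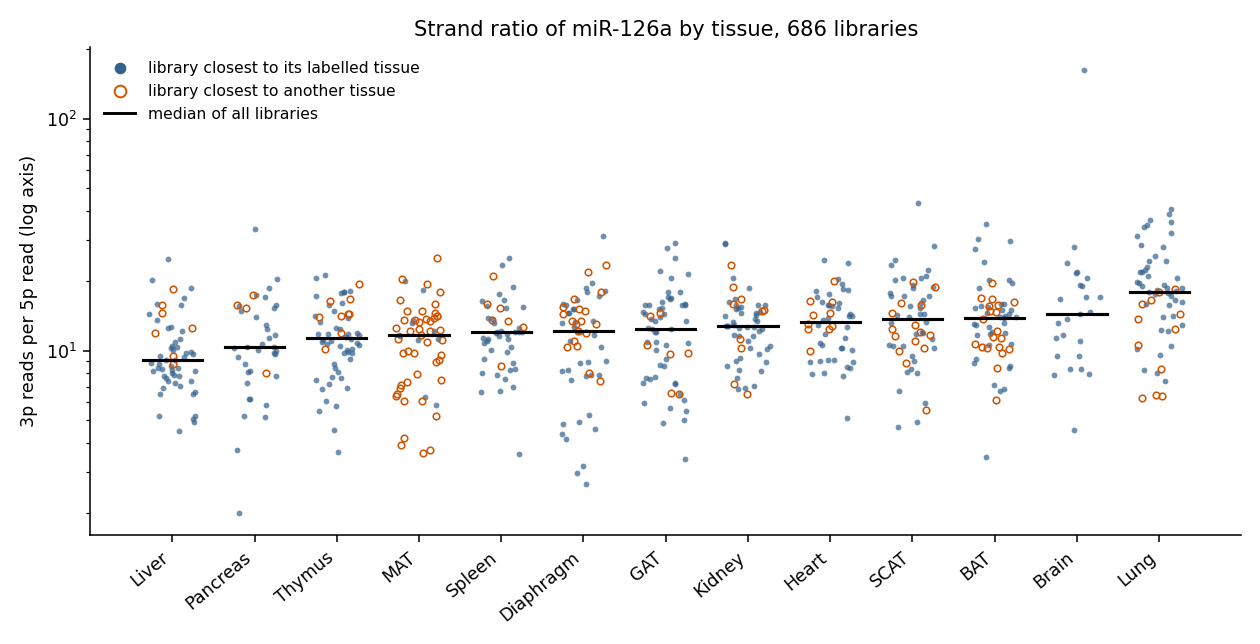
Reads of miR-126a-3p per read of miR-126a-5p in every library by labelled tissue, on a log axis, with the median of each tissue as a black line and open points for libraries closest to another tissue. Medians stay between 9.13 in liver and 17.8 in lung, within the spread of single tissues, and the brain library at 163 stands alone.

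Of 31 duplexes with a median of at least 50 CPM for both strands, miR-126a had rank 3 from the smallest by the standard deviation of its 13 tissue medians of log2(3p/5p), at 0.24. Only miR-378a (0.21) and miR-199a (0.22) were lower. Its medians covered 0.97 log2 units, from 3.19 to 4.16. By this range, which rests on the 2 end tissues, 7 duplexes were narrower, from 0.68 for miR-378a to 0.96 for miR-339, and miR-193a was widest at 3.01. Liver and lung were its end points.

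**Figure D3:**
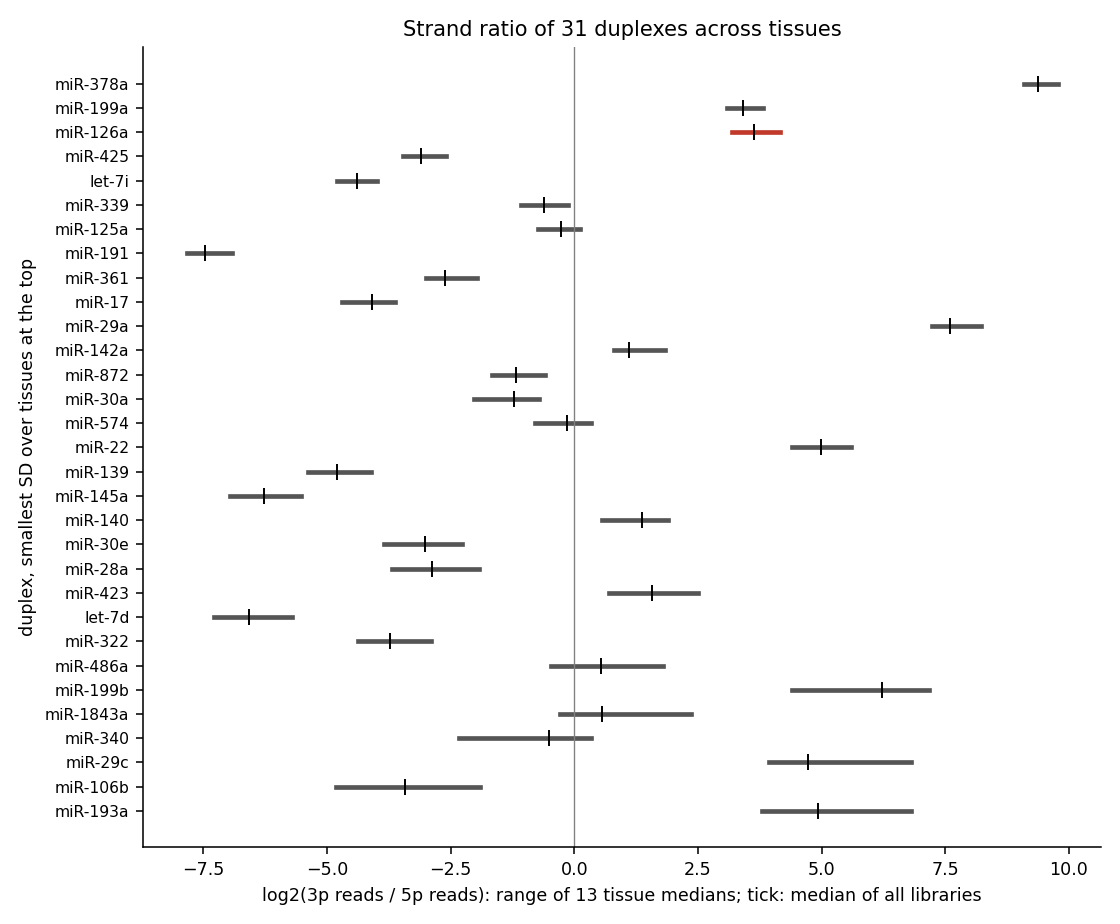
Range of the 13 tissue medians of log2(3p reads / 5p reads) for each of 31 duplexes (bar) and the median over all libraries (tick), ordered from the smallest standard deviation at the top. miR-126a, in red, has rank 3 from the top and spans 3.19 to 4.16.

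How far the 3p strand tracked other vessel-linked miRNAs was described with marker lists, of which none is specific to endothelium. The vascular-linked list held 10 miRNAs, among them both miR-126b strands, miR-23a, miR-27a and miR-24 of a shared cluster, and miR-221, which is known for restraining vessel growth. Its summed median level was highest in lung (78030.1 CPM), followed by GAT (64867 CPM), and lowest in liver (28202 CPM), with brain at 30335 CPM. Over the 13 tissue medians its log2 sum had r = 0.791 with the 3p strand, against 0.677 for 4 mural and smooth muscle strands of miR-143 and miR-145a, 0.646 for 4 red cell miRNAs and -0.03 for 4 white cell and platelet miRNAs. Within tissues, over libraries, the same values were 0.322, 0.283, 0.319 and -0.20, while the pair of lung miRNAs had 0.326 and the brown fat pair 0.250, so the vascular-linked list did not stand apart there. Members of the vascular list did not behave alike. miR-24-3p (r = 0.831 over tissues), miR-23a-3p (0.732) and miR-27a-3p (0.698) peaked in lung with the 3p strand, while miR-139-5p (-0.36) was highest in brain and lowest in lung, and miR-92a-3p (0.369) was highest in thymus. The remaining 10 lists, for single tissues, muscle and epithelium, had r over the 13 tissue medians between -0.62 for the brain pair and 0.380 for the brown fat pair. All points share library size, and in bulk tissue fewer endothelial cells and less miR-126a per endothelial cell cannot be told apart.

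Among 332 miRNAs at 10 CPM or more in at least 7 tissues, the miRNAs most like the 3p strand over the 13 tissue medians came after the 5p strand itself. They were miR-322-3p (r = 0.873), miR-24-2-5p (0.847), miR-24-3p (0.831), miR-450b-3p (0.816) and miR-322-5p (0.776). miR-322 and miR-450b lie between positions 53048008 and 53054327 of chromosome X, and the RefSeq entries of miR-24-2-5p and miR-24-3p between 84208839 and 84208896 of chromosome 8. Over libraries within tissue and collection the list was another one: miR-30c-5p (0.620), miR-24-2-5p (0.613), miR-30b-5p (0.607), miR-30a-5p (0.568) and miR-221-3p (0.562), with the 5p strand at rank 6 (0.562). miR-30 members led both strands' lists within tissues, and miR-30a-5p and miR-30c-5p carry the same seed, shown in capitals.
mmu-miR-30a-5p: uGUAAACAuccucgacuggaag
mmu-miR-30c-5p: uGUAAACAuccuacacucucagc

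For the 5p strand the nearest over tissues were miR-199b-3p and miR-199a-3p (0.853 each), which have the same mature sequence, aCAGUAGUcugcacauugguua (seed in capitals), and cannot be told apart by reads. They were followed by miR-322-3p (0.841), miR-10a-5p (0.822) and miR-24-2-5p (0.816). Within tissues they were miR-30a-5p (0.571), miR-29c-5p (0.545), miR-99a-3p (0.505), miR-24-3p (0.489) and miR-450a-5p (0.433), with the 3p strand at rank 2. miR-24-2-5p and miR-24-3p were thus in lists of both strands.

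The opposite-strand miR-126b, printed above, had another order of tissue medians than miR-126a. Median miR-126b-3p was 37.6 CPM in GAT, 36.8 CPM in BAT, 31.4 CPM in SCAT and 22.0 CPM in MAT, and at most 8.32 CPM in the other 9 tissues. In lung, where miR-126a-3p peaked, miR-126b-3p had a median of 1.06 CPM and a range of 0.147 to 31.8 CPM, and its r with miR-126a-3p was -0.60 over 58 lung libraries of shared pools. Within the other tissues this r ran from -0.15 in heart through 0.519 in pancreas, 0.536 in brain and 0.557 in diaphragm to 0.665 in BAT, so the direction was not the same in every labelled tissue. These values include libraries closest to another tissue, 12 of 58 in lung and 20 of 60 in BAT. They were not recomputed without such libraries, whose part in them was not tested. Median miR-126b-5p was 5.80 CPM in BAT, 5.61 CPM in GAT, 5.08 CPM in MAT and 4.39 CPM in SCAT, and brain had 0 reads in 20 of 25 libraries. Fat libraries also had the smaller miRNA shares of 5 counted RNA classes, at medians of 2.39% in GAT, 3.20% in MAT, 4.01% in SCAT and 8.20% in BAT against 16.5% in lung. Pancreas had 2.12% with 1.18 CPM of miR-126b-3p. The part of this share in the fat levels was not tested, and whether the counting used strand is not given in the sources used here, so reads of the opposite strands cannot be fully told apart.

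The design asks first whether flight changed miR-126a. Neither strand passed the test in any tissue, in edgeR's quasi-likelihood test with Benjamini-Hochberg adjustment over all miRNAs of the tissue at 0.05. In FL vs. HGC in LAR, 0 of 26 tests were called (13 tissues by 2 strands) where 1.54% of all miRNA tests were, with 3 of 26 at unadjusted p under 0.05 by edgeR, 2 by DESeq2 and 4 by a Wilcoxon test on CPM. In FL vs. HGC in TERM 0 of 26 were called against 0.307% of all tests, with 2, 1 and 1 at unadjusted p under 0.05 by the same tools. FL vs. VGC, where flight and housing differ together, gave 0 of 26 in LAR (0.736% of all tests, and 1, 1 and 1 unadjusted) and 0 of 26 in TERM (0.712%, and 0, 1 and 0 unadjusted). HGC vs. VGC, the housing comparison, gave 0 of 26 in LAR (0.176%, and 0 unadjusted by each tool) and 0 of 26 in TERM (0.251%, and 1, 1 and 0 unadjusted). DESeq2 and the Wilcoxon test also called 0 in each of these comparisons. With shares this low over all miRNAs, 0 calls for 2 strands is close to the background.

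The precision bounds what could have been seen. In FL vs. HGC the median standard error of a log2 fold change was 0.29 in LAR and 0.34 in TERM, and the estimates ran from -0.84 to 0.56 and from -1.56 to 1.02. Their medians were 0.02 and 0.00197, near 0 across tissues. The vascular-linked list had 0 of 130 tests called in either direction in each of the 6 arm comparisons and medians of log2 fold change from -0.04 to 0.07. In FL vs. HGC in LAR, where 117 of 12498 tests were higher and 76 lower over all miRNAs, mural miRNAs had 0 of 52 called, red cell miRNAs 1 lower of 52, and white cell and platelet miRNAs 3 higher of 52. In the same comparison the pancreas list had 5 higher of 39 and the muscle list 2 higher and 4 lower of 39.

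Lung, the tissue richest in miR-126a, shows how the arms overlapped. In LAR, 3p libraries ran from 22257 through a median of 56406 to 86755 CPM in FL, from 32628 through 61474 to 103167 CPM in HGC and from 7966 through 44868 to 85448 CPM in VGC. In TERM they ran from 7162 through 36222 to 63836.5 CPM in FL, from 11532 through 53963 to 75495 CPM in HGC and from 17382 through 45730.0 to 117744 CPM in VGC. Each group's median lay inside the range of every other. In all of these groups but HGC of LAR, the lowest library was closest to another tissue. That tissue was BAT at 7162 CPM, SCAT at 7966 CPM, liver at 11532 CPM, BAT at 17382 CPM and heart at 22257 CPM. Lung libraries closest to lung began at 32628 CPM in LAR and 27771 CPM in TERM.

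The estimate farthest from 0 was in the thymus of TERM mice. The 3p strand there ran from 2174 through 4864 to 6868 CPM in 10 FL libraries, from 2370.3 through 6741 to 45791.5 CPM in 9 HGC libraries and from 2428 through 5185 to 25200.4 CPM in 9 VGC libraries. FL libraries stayed close to or below the HGC median, and the ranges overlap. The log2 fold change of FL vs. HGC was -1.56 ± 0.53 (SE), with edgeR p = 0.00583 and adjusted p = 0.318, and over 10 alternatives it ran from -1.58 to -0.47 with adjusted p from 0.283 to 0.959. The 5p strand gave -0.54 ± 0.46, and over 10 alternatives it ran from -0.54 to 0.24. Of these libraries, 0 of 10 FL, 2 of 9 HGC and 2 of 9 VGC were closest to another tissue. The HGC library at 45791.5 CPM was closest to lung. Without the 11 pools, which leaves that library in, the 3p value was -1.41. Vascular-linked sums overlapped, with medians of 30282 CPM in FL, 28936 CPM in HGC and 39761 CPM in VGC, while the median of their fitted log2 fold changes was -0.55, beside -0.66 for red cell miRNAs and -0.15 over all miRNAs. miRNAs of other tissues also had lower estimates in FL than in HGC in the same fit, with medians of log2 fold change of -4.43 for liver, -3.81 for heart and -2.66 for muscle, while the brain and brown fat lists had 0.23 each, and 0 calls were made in each list. The library medians of the heart sum (19.6 CPM in FL and 9.26 CPM in HGC) and of the muscle sum (2580 and 2082 CPM) went the other way. Summed muscle miRNAs reached 16623 CPM in FL and 274880 CPM in HGC, and summed thymus miRNAs went down to 108483 CPM in FL and 15345 CPM in HGC. The part of these other tissues in the 3p estimate was not tested.

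In the heart of LAR mice, the 5p strand ran from 745 through 1053 to 1254 CPM in 6 FL libraries and from 786 through 1963 to 3700 CPM in 6 HGC libraries, with -0.84 ± 0.37 and adjusted p = 0.314 by edgeR. Over 10 alternatives this value ran from -1.20 to -0.60, the latter without the 11 pools, and was never called. In MAT of LAR mice the 3p strand was at a median of 12641 CPM in 9 FL libraries and 21043 CPM in 10 HGC libraries, with -0.62 ± 0.25 and adjusted p = 0.566 by edgeR. Its 10 alternatives ran from -0.73 to -0.38, the latter once the 11 pools were left out. In both cases the FL range overlapped the HGC range. Brain held 4 or 5 libraries a group, all closest to brain. In LAR the 3p strand was at 4458, 5323, 3501 and 6344 CPM in FL and at 7418, 1778, 3181 and 2479 CPM in HGC, and in VGC at 2055, 1525, 3990.4 and 6978 CPM. The brain groups overlapped, and 3p fold changes between arms in brain had standard errors of 0.49 to 0.52.

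**Figure D4:**
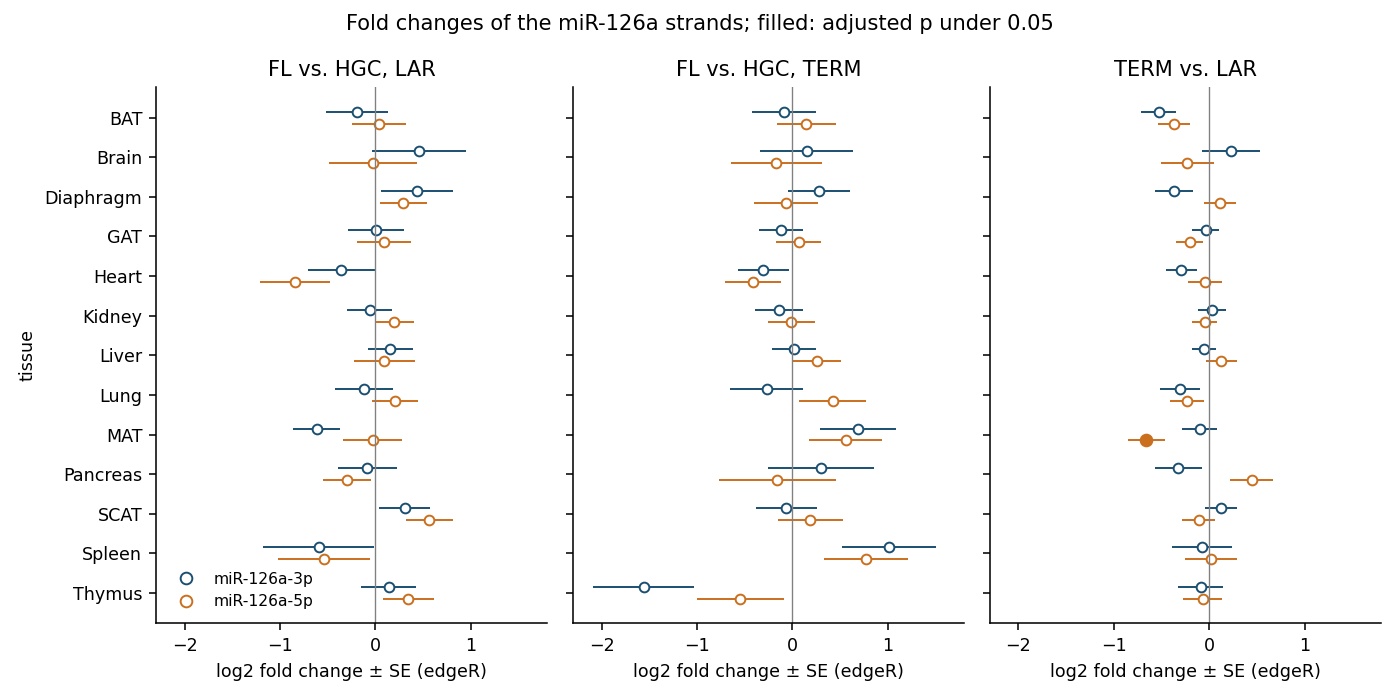
Log2 fold change (point) and standard error (line) of miR-126a-3p (blue) and miR-126a-5p (orange) in each tissue for FL vs. HGC in LAR, FL vs. HGC in TERM, and TERM vs. LAR, from edgeR. A filled point marks an adjusted p under 0.05, which only the 5p strand of MAT in TERM vs. LAR reached, and the thymus 3p value of -1.56 lies farthest from 0.

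The strand ratio was compared between arms within each library set, where no scaling between libraries enters. Differences are between means of the log2 ratio. Of 39 comparisons in LAR 0 passed a 2-sided permutation test adjusted over the 39, and 0 had an unadjusted p under 0.05. Of 39 in TERM 0 passed and 2 had an unadjusted p under 0.05. In the thymus of TERM mice FL against HGC gave a log2 difference of -0.84 (exact permutation p = 0.00279, adjusted p = 0.109), with median ratios of 8.40 and 16.1. The difference between FL and VGC there was -0.59 (exact permutation p = 0.0501, adjusted p = 0.637). In the lung of TERM mice FL against VGC gave -0.74 (exact permutation p = 0.0274, adjusted p = 0.534). Groups overlapped in each case.

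Neither strand was called with age. Comparing 8 with 3 months, 0 of 24 tests were called in LAR, where 0.296% of all miRNA tests were, and 0 of 24 in TERM, where 1.83% were. By edgeR 0 in LAR and 3 in TERM had an unadjusted p under 0.05, and DESeq2 gave the same 0 and 3 with 0 calls. Lung 3p medians were 49166 CPM at 3 months and 57330.1 CPM at 8 months in LAR, and 39767 and 40012 CPM in TERM. The age estimate farthest from 0 was the spleen 3p strand in TERM, at 8083 CPM at 3 months and 11054 CPM at 8 months, with 0.95 ± 0.38 and adjusted p = 0.256 by edgeR. Without the 11 pools it was 0.15, while the 5p strand in thymus of TERM was then called (1.11, adjusted p = 0.0454 by edgeR). Scaled to 5 RNA classes, both strands of SCAT in TERM were called (1.57 and 1.76). Whether flight acted differently at the 2 ages was tested as an interaction, with 0 of 24 calls in LAR (0.113% of all tests, 0 unadjusted) and 0 of 24 in TERM (1.06%, 1 unadjusted by edgeR and 2 by DESeq2, both with 0 calls). Standard errors of this interaction had medians of 0.56 and 0.67, so differences of that size were not detectable. The strand ratio differed with age in 0 of 24 comparisons, with a smallest adjusted p of 0.925 by permutation.

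Between the collections 1 strand in 1 tissue was called, at a share of tests below the background. TERM vs. LAR differs in time, in days on station, in how tissue was frozen and, for FL mice, in the return to Earth. LAR mice of FL and HGC also had denser housing on the delayed return, and these differences cannot be told apart. Age differs too in pancreas, with 11 TERM libraries at 3 months against 15 at 3 and 13 at 8 months in LAR. In brain it does as well, with 12 LAR libraries at 3 months against 8 at 3 and 5 at 8 months in TERM. Of 26 tests 1 was called, against 7.86% of all miRNA tests, with 3 of 26 at unadjusted p under 0.05 by edgeR and 3 by DESeq2, which also called 1. The call was the 5p strand in MAT, which fell from 646 through a median of 2140.3 to 3687 CPM in 28 LAR libraries to 311 through 1265 to 3994 CPM in 29 TERM libraries. The ranges overlap, while the TERM median lies well below that of LAR. The log2 fold change was -0.66 ± 0.19 with adjusted p = 0.00486 by edgeR, and -1.11 without the 11 pools, where the 3p strand was called too (-0.55 ± 0.16, adjusted p = 0.00357) and where 34 of 44 MAT libraries were still closest to another tissue. With all libraries the 3p strand gave -0.10 ± 0.18, with medians of 17228 CPM in LAR and 15370 CPM (15369.5) in TERM.

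MAT is also where libraries least resembled their label. Of its miRNAs 42.0% were called in the same comparison, so a call for 1 of 2 strands is close to the background there. The 3 pancreas-defining miRNAs summed to a median of 44279 CPM in LAR (123 to 133555) and 522 CPM in TERM (58.9 to 28740.2), and the 4 white cell and platelet miRNAs to 5827 CPM in LAR (1592 to 93197) and 68868 CPM in TERM (2093 to 190554). None of these defining miRNAs gave a sum of 0. Epithelium miRNAs were called lower for 3 of 3 (median sums of 12525 CPM in LAR and 397 CPM in TERM), and thymus miRNAs for 1 of 2. Muscle miRNAs were called higher for 3 of 3 (2103 and 3162 CPM), the liver miRNA too (371 and 976 CPM), and mural miRNAs for 1 of 4. Over all miRNAs of this fit 204 were higher and 142 lower of 823. Of MAT libraries, 24 of 28 in LAR and 22 of 29 in TERM were closest to another tissue, most often pancreas (21) or spleen (12). In the 4 LAR and 7 TERM libraries closest to MAT, median 5p was 1769 and 1360 CPM. The part of these other tissues in the 5p difference was not tested. Vascular-linked sums had medians of 54712 CPM in LAR and 51052.5 CPM in TERM, and 1 of the 10 vascular-linked miRNAs was called higher and 4 lower in TERM. The mean log2 strand ratio in MAT rose in TERM by 0.47, averaged over arms (permutation within arms, p = 0.00529, adjusted p = 0.0387 over 13 tissues). The median ratio went from 10.3 to 12.1.

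In pancreas the mean log2 ratio moved the other way, by -0.66 averaged over arms (permutation within arms, p = 0.00596, adjusted p = 0.0387). The median ratio went from 11.5 in 28 LAR libraries to 7.26 in 11 TERM libraries. All TERM libraries were from 3-month mice, and the 15 LAR libraries of that age had a median ratio of 11.6. The part of age in this difference was not tested. The FL TERM libraries had ratios of 15.3, 14.7, 7.26 and 2.00, the HGC TERM libraries 6.21, 6.20, 10.4, 5.20 and 3.73, and the VGC TERM libraries 8.14 and 10.3. LAR libraries ran from 5.24 to 33.4, so the collections overlap, and 3 TERM libraries lay below that range. Markers moved with the collection in pancreas too. From LAR to TERM, median sums went from 20947 to 46168 CPM for mural miRNAs, from 682 to 3372 CPM for the liver miRNA and from 1785 to 510 CPM for brown fat miRNAs, with 1 of 4, 1 of 1 and 1 of 2 called, and 1 heart and 1 thymus miRNA were called lower. Of 3 kidney miRNAs 1 was called higher, and of 10 vascular-linked miRNAs 1 was called higher and 2 lower. Over all miRNAs of this fit 59 were higher and 79 lower of 685. The pancreas list itself had 0 of 3 called, at 103592 and 90020 CPM (90019.7 before rounding), and the part of the other markers in the ratio was not tested. The 3p strand in pancreas gave -0.32 ± 0.24 and the 5p strand 0.45 ± 0.22, neither called. Both depended on the scale: on the total of 5 RNA classes the 3p value was -1.70 and called (adjusted p = 0.00611 by edgeR), and the 5p value had the opposite sign, at -0.80. Neither ratio call held without the 11 pools, where MAT gave 0.52 (adjusted p = 0.148) and pancreas -0.62 (adjusted p = 0.206). The other 11 tissues had ratio differences from -0.31 to 0.47, with 0 called. In brain, where LAR held 3-month mice alone, the difference of 0.47 had adjusted p = 0.492 by permutation. It rested on 13 TERM and 12 LAR libraries.

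**Figure D5:**
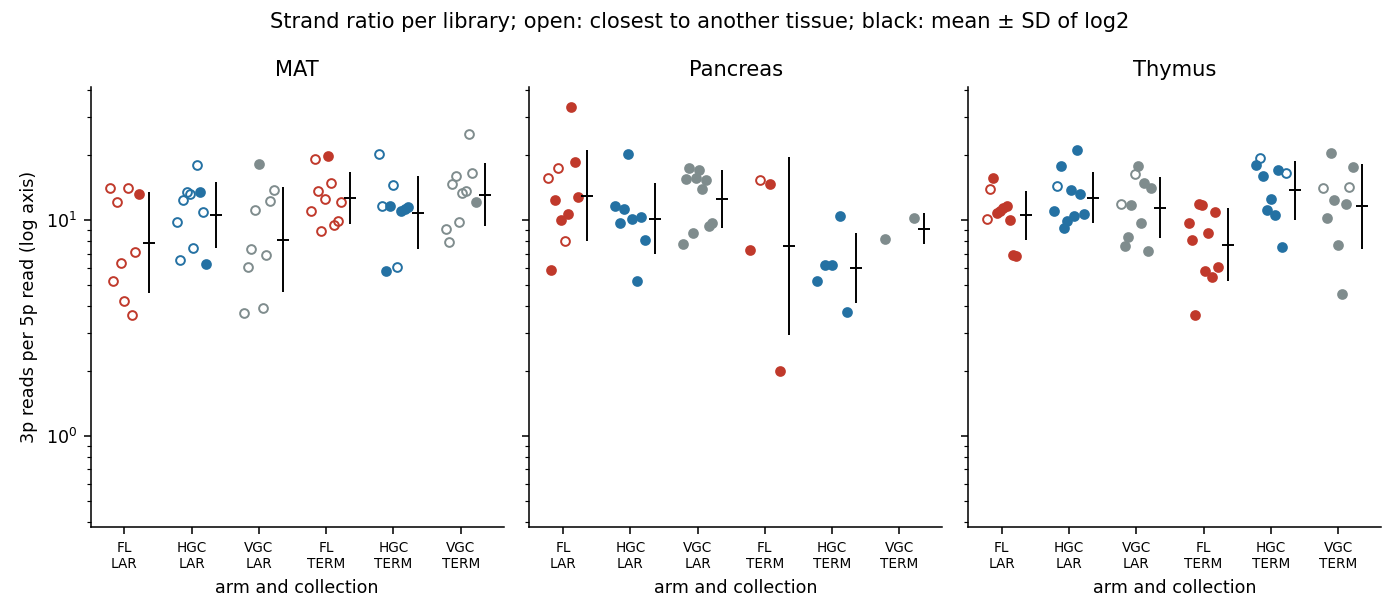
Reads of miR-126a-3p per read of miR-126a-5p in each library of MAT, pancreas and thymus by arm and collection, on a log axis, with open points for libraries closest to another tissue and the mean ± SD of log2 values in black. TERM libraries sit higher in MAT and lower in pancreas than LAR libraries, and FL libraries of TERM sit low in thymus, with overlap throughout.

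In thymus the size of the difference depended on the scale and on the libraries. Its 3p median was 10303 CPM in LAR and 5576 CPM in TERM, and its mean log2 level in libraries closest to thymus was 13.12 ± 0.55 (SD, n = 25) and 12.25 ± 0.66 (SD, n = 24), while edgeR over all libraries with TMM factors gave -0.09 ± 0.23 and, on miRNA totals alone, -0.41. Over 8 alternatives the value ran from -0.52 to -0.06, never called. Brown fat miRNAs were called lower in TERM for 2 of 2 (median sums of 2701 and 817 CPM), red cell miRNAs for 1 of 4 (36963 and 19669 CPM), and thymus miRNAs were called higher for 1 of 2 (195243 and 274155 CPM). The liver miRNA and 1 of 2 heart miRNAs were called higher, though the median heart sum went from 55.6 to 21.8 CPM. The mural, lung, and white cell and platelet lists each had 1 lower, and the vascular-linked list 1 higher and 1 lower of 10. Over all miRNAs of this fit 87 were higher and 70 lower of 917. Their part in the 3p difference was not tested. The 3p strand of BAT gave -0.53 ± 0.19 (adjusted p = 0.220 by edgeR), with medians of 23128 CPM in LAR and 20073 CPM in TERM, and among 8 alternatives it was called only when libraries were scaled to 5 RNA classes (-1.24, adjusted p = 0.000324). The vascular-linked list as a whole had 4 tests higher and 7 lower of 130 in TERM vs. LAR, with a median of -0.06, beside 515 higher and 385 lower of 11454 over all miRNAs. The mural list had 5 higher and 1 lower of 52, the red cell list 4 and 1, and the white cell and platelet list 6 and 1.

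Whether the flight difference itself depended on the collection was tested last. Of 26 interaction tests 0 were called, where 1.12% of all tests were, with 4 at unadjusted p under 0.05 by edgeR and 3 by DESeq2, which called 0. The 3p strand of MAT had 1.32 ± 0.45 (adjusted p = 0.227 by edgeR), which ran from 0.52 to 2.59 over 8 alternatives. Thymus gave -1.56 for 3p, with the smallest adjusted p, 0.153. Spleen gave 1.78, and -0.15 without the 11 pools. The vascular-linked list had 1 of 130 called, and it was higher.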

How the data were processed

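RNA was extracted with miRNeasy-96, made into libraries with the MGIEasy Small RNA kit and sequenced single-end on the BGISEQ500RS. Reads were mapped by the authors to GRCm39 and miRBase with miRMaster. The authors deposited estimated counts per miRNA (0.790% of values carry a fraction, 0 of those of miR-126a) and whole counts for tRNA, rRNA, snRNA and snoRNA. Columns were matched to samples by the column name in each sample's description. The strands were expressed as counts per 1000000 miRNA counts (CPM), with 1 CPM added before log2, and the ratio as log2 of 3p over 5p counts with 0.5 added to each. Levels were tested with edgeR 4.0.16 (R 4.3.3, limma 3.58.1) on rounded counts with TMM factors, with a fit per tissue (per tissue and collection for arms and ages) over miRNAs with at least 5 reads in at least 10% of an arm's samples, and called at an adjusted p under 0.05. DESeq2 1.42.0 and a Wilcoxon test were alternatives. Other tests were permutations, of mean log2 ratios between groups and of medians for the order of tissues. They were exact between arms up to 200000 splits and otherwise used 100000 resamples (Python 3.11.15, numpy 2.4.6, pandas 2.3.3, scipy 1.17.1). Scripts were checked on simulated data.

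Named miRNAs were the members, the 5 highest correlations per strand over tissues and within tissues, and 45 listed markers. Members and lists were chosen with earlier results of these data known. Sequencing pools were taken as the study lists them for each library, and 11 were set apart by a criterion chosen after counts were seen. Depth was 0.181 to 30.5 miRNA counts per library in units of 1000000. Mouse numbers recur between arms but name different animals, so they pair no samples.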

Additional observations from a re-analysis of the deposited data

Results flagged for a closer look

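Groups of 4 to 10 libraries were examined for the 3p level, the 5p level and the strand ratio, 231 cases in all, and 21 held a library whose gap to its neighbour was above Dixon's 95% critical value. Chance flags about 1 in 20 groups, and the 3 quantities of a group are not independent. The 21 values came from 17 libraries, and 10 of them from libraries closest to another tissue.

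Spleen held the highest such values. FL TERM mouse 11 had 55122.4 CPM of 3p and 4065.3 CPM of 5p, and VGC TERM mouse 13 had 51569.9 and 3245.9 CPM, both in libraries closest to lung. HGC LAR mouse 16 had 2003.5 CPM of 5p in a spleen library closest to BAT. Among spleen libraries closest to spleen, HGC TERM mouse 1 had 3293.3 CPM of 3p and HGC TERM mouse 4 had 269 CPM of 5p.

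In brain, VGC TERM mouse 8 had 45.1 CPM of 5p and a strand ratio of 163, where the other 3 libraries of its group had ratios of 7.94 to 11.0. Its library was closest to brain and rested on 27 reads of 5p. In lung, FL LAR mouse 14 had 22257.2 CPM of 3p in a library closest to heart, and FL TERM mouse 14 had 7161.8 CPM in a library closest to BAT. SCAT of HGC LAR mouse 16 had 3715.6 CPM of 3p, closest to diaphragm, and SCAT of VGC TERM mouse 12 had 2938.8 CPM of 5p, closest to lung. Liver of VGC LAR mouse 12 had 412 CPM of 5p, closest to thymus.

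The remaining flags were in libraries closest to their own label. Diaphragm had a ratio of 2.96 in FL LAR mouse 14 and 2031.3 CPM of 3p in VGC LAR mouse 12. GAT of VGC TERM mouse 3 had a ratio of 5.47, kidney of HGC TERM mouse 1 had 46651.5 CPM of 3p, and pancreas of VGC LAR mouse 3 had 379 CPM of 5p. Thymus of FL LAR mouse 13 was low for both strands, at 3207.3 CPM of 3p and 464 CPM of 5p.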

How the results depend on the processing

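Of 2644 strand estimates recomputed under alternatives, 391 (14.8%) had the opposite sign. The order of tissues also changed with the scale. The 5p strand in thymus of TERM (FL vs. HGC) was 0.24 by the Wilcoxon alternative and 0.0284 with a replicate block, and the 3p interaction of collection and flight in spleen was -0.15 without the 11 pools. Scaling to the total of 5 RNA classes, an alternative chosen after seeing the data in place of 7 classes, which was not run, gave 8 calls in TERM vs. LAR (both strands of BAT, liver and lung, 5p in MAT and 3p in pancreas, each lower), 2 in 8 vs. 3 months in TERM (both SCAT strands), 1 in the interaction of age and flight in TERM (GAT 3p, 1.98) and 1 differing pair in the 5p order. On that scale the 5p value of pancreas was -0.80 and that of liver -0.53, each of opposite sign to the value with TMM factors. The other classes per miRNA count differed between TERM and LAR by -0.18 (log2) in spleen to 1.35 in pancreas. Leaving out the 11 pools gave 2 calls in TERM vs. LAR, 1 in 8 vs. 3 months in TERM (thymus 5p, 1.11), 5 differing pairs in the 3p order and 0 ratio calls in TERM vs. LAR. A difference of medians gave 1 ratio call there. The cause was not tested, and leaving out pools also leaves fewer samples.

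The fit with a replicate block gave 0 calls in each of the 6 arm comparisons, where alone it was run. Mouse numbers name different animals in each arm, and 268 of 653 same-number pairs between arms (41.0%) correlated above 0.1. The mean r of a fit had a median of 0.0282 for same numbers and 0.0190 for other numbers. In heart of TERM these means were 0.157 and 0.0345, and in brain of LAR -0.15 and 0.0522. These values do not decide whether a number marks a shared condition. Leaving out each library of the groups of 2 to 5 gave 0 calls throughout. The 5p call in MAT held in 8 of 8 alternatives. Shallow 5p counts, down to 27 reads, limit single ratios.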
